A study of Mus musculus with 6 samples.

Results

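The PGC1, PPAR and ERR regulators are 10 genes that control mitochondrial and fatty acid metabolism: the coactivators Ppargc1a and Ppargc1b, the nuclear receptors Ppara, Ppard, Pparg, Esrra, Esrrb and Esrrg, and the transcription factors Nrf1 and Tfam. They were taken by name, as mouse symbols matched to Ensembl identifiers, from the 43629 genes of the count files, and all 10 were found. RNA-Seq was made on primary cardiomyocytes from CD-1 mouse ventricles at embryonic day 13.5, with the ventricles of each litter pooled. The cells were cultured for 48 h in medium with fetal serum, transfected with 12 nM negative siRNA or 12 nM of a pool of DNMT1 siRNAs, and sorted with an antibody to VCAM1 at 72 h, with 3 cultures per treatment. The siRNA lowers the maintenance DNA methyltransferase without removing its gene, and every culture received a transfection, so that no untreated cells were compared.

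PGC1 proteins do not bind DNA themselves. They are recruited by nuclear receptors and other factors and raise the transcription of genes for mitochondrial respiration and fatty acid oxidation. PPARs bind DNA as heterodimers with RXR and respond to fatty acids, and ERRs are orphan receptors that act with PGC1 on genes of the tricarboxylic acid (TCA) cycle and the respiratory chain. NRF1 drives nuclear genes for respiratory chain subunits and for TFAM, which packages mitochondrial DNA and helps to start its transcription. In the heart this network is known for the shift from glycolysis towards fatty acid oxidation around birth.

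The samples were first checked against their labels. In normalized counts, Dnmt1 was at 3028 ± 367.2 in the negative siRNA cultures and 741.2 ± 65.79 in the DNMT1 siRNA cultures (SD over 3 cultures each), which was 24.5% of the control mean (edgeR quasi-likelihood test, adjusted p = 0.000192). One label of these DNMT1 siRNA samples, the treatment, gives DNMT3a as the target, but Dnmt3a stood at 117.8% of its control mean (log2 fold change 0.24, adjusted p = 0.0919). Reads counted on genes ranged from 27852412 to 35896018 with negative siRNA and from 13739561 to 16186310 with DNMT1 siRNA. Uniquely mapped reads outside annotated exons made up 14.6% to 17.5% of the former libraries and 24.4% to 32.0% of the latter. Normalized counts are reads per gene after TMM scaling of the libraries, and a gene was called when its adjusted p was below 0.05 and its fold change above 1.5. Nothing in the labels says how the cultures of a treatment were separated, so p values measure the spread between these cultures, which may be technical.

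Markers of cell types moved between the treatments as well. Of 6 cardiomyocyte markers, 5 rose, the sarcomere genes Tnnt2, Actn2 and Myh6, the calcium release channel Ryr2 and the transcription factor Nkx2-5. The summed normalized counts of all 6 lay between 39863 and 45545 with negative siRNA and between 73923 and 91958 with DNMT1 siRNA. Vcam1, the sorting antigen, was not called (log2 fold change -0.26, adjusted p = 0.148). Of 7 fibroblast markers, the collagens Col1a1 and Col1a2 and the proteoglycan Dcn fell, and their summed level was 779564 to 1205282 with negative siRNA and 591034 to 630655 with DNMT1 siRNA. Defining markers of fibroblasts were therefore abundant in sorted cardiomyocytes of both treatments. Of 6 endothelial markers, Kdr and Emcn rose and 4 were not called, of which Tek was lower in every DNMT1 siRNA culture (log2 fold change -0.35, adjusted p = 0.0373, under the fold change limit), and the summed levels overlapped, at 1216 to 2028 and 1933 to 2256. With 1 culture left out at a time, Actn2, Myh6 and Ryr2 were called in 6 of 6 fits, Nkx2-5 in 5, Dcn in 3, Tnnt2, Col1a1, Col1a2 and Emcn in 2 and Kdr in 1. Both collagens were lost without negative siRNA replicate 2 and without each DNMT1 siRNA culture. In bulk RNA, fewer cells of a type and less RNA per cell cannot be told apart. No smooth muscle, epicardial or macrophage marker was called. Of the smooth muscle markers, Mylk was higher in every DNMT1 siRNA culture (log2 fold change 0.42, adjusted p = 0.018), under the fold change limit. Acta2 was lower in every one (-0.51, adjusted p = 0.0457), also under that limit, and Mylk alone had a log2 fold change above 0. Summed levels were 110471 to 168075 and 95027 to 99628 for 5 smooth muscle markers, without overlap, and 28124 to 32216 and 30208 to 31446 for 5 epicardial markers. Those of macrophage markers were 176.2 to 589.4 and 123.4 to 220.8, and adipocyte markers summed to at most 13.2 and 21.3, with Adipoq at 0 counts in every negative siRNA culture.

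Promoter sequences of the genes were compared because DNMT1 maintains methylation at CpG dinucleotides. DNA methylation itself was not analysed here. RefSeq windows from 250 bases before to 50 after a start (GRCm38.p6) were given for 9 of the 10 genes, all but Ppargc1b. The sequences shown are the bases of 3 of these windows before the start, up to any annotated exon of the gene. They run 5′ to 3′ on the strand of the gene, with every CpG in capitals. Ppargc1a (chr5:51567727-51567975, minus strand) and Esrrg (chr1:187997577-187997826, plus strand, the last of its 4 starts, which lies within the gene) belong to genes that rose. Nrf1 (chr6:30047738-30047987, plus strand, the first of its 2 starts) belongs to a gene that was not called.
Ppargc1a: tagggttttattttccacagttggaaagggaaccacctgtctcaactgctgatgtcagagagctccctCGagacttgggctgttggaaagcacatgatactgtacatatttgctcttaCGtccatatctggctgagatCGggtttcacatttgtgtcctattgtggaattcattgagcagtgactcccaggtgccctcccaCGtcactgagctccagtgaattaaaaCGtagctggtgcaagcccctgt
Esrrg: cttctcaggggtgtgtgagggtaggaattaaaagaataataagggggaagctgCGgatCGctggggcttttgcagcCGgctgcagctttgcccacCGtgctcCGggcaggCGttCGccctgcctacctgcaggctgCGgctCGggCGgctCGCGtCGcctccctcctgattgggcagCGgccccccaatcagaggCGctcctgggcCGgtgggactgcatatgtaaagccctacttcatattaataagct
Nrf1: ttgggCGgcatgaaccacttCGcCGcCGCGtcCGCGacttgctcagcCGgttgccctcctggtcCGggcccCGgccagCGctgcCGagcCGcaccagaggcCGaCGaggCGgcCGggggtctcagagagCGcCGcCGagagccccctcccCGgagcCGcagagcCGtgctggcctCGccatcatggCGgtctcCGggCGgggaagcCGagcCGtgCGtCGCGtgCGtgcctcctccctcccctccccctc
Over 32851 RefSeq windows the number of CpGs had a median of 7, with quartiles of 3 and 20. The Ppargc1a window held 5 CpGs, below that median. The 4 windows of Esrrg held 15, 16, 22 and 19, and the 2 windows of Nrf1 held 43 and 2. Most other members lay above the median, with 30 CpGs for Ppara, 27 for Ppard, 25 for Esrra and 21 for Tfam, while both windows of Esrrb held 7. Pparg had 3 starts with 44, 13 and 2 CpGs. Of the called members, Esrrg thus had windows above the median, that of 22 CpGs alone above the upper quartile of 20. Ppargc1a lay below the median, and Ppargc1b had no window. Uncalled members included windows both above and below the median. The Ppargc1a promoter is known to respond to CREB, and its window held 1 half-site of the cAMP response element (TGACG, searched on both strands), 49 bases before the start on the reverse strand, a match that 20.8% of all windows held. The same half-site was in the windows of the uncalled Ppara (1) and Ppard (1) and of the untested Esrrb (2 in the first of its windows). The full element TGACGTCA, which contains that half-site, was found in 1.79% of windows and in none of a member. The extended half-site bound by ERRs (AAGGTCA, both strands) was in 4.72% of windows and in none of a member. The NRF1 core GCGCATGCG (both strands) was in 1.75% of windows and, among the members, in that of Ppara alone. It had 2 matches there, which can be 1 site, since the core and its reverse complement can overlap.

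Of the 10 regulators, 9 passed the filter on low counts and were tested, and Esrrb did not. Ppargc1a, Ppargc1b and Esrrg rose with DNMT1 siRNA, the other 6 tested members were not called, and none fell. Over all 15470 genes tested, 4.26% were called up and 2.23% were called down. The median log2 fold change of the 9 tested members was 0.32, compared with -0.0049 over all genes tested. At an unadjusted p below 0.05, 4 members were higher and 1 was lower, where 14.9% and 14.3% of all genes tested were. DESeq2 and edgeR's exact test also called 3 up and 0 down. The 3 DNMT1 siRNA cultures lay above all 3 negative siRNA cultures for 5 members and below them for 2, which was the case for 18.3% and 17.7% of all genes tested.

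**Figure D1:**
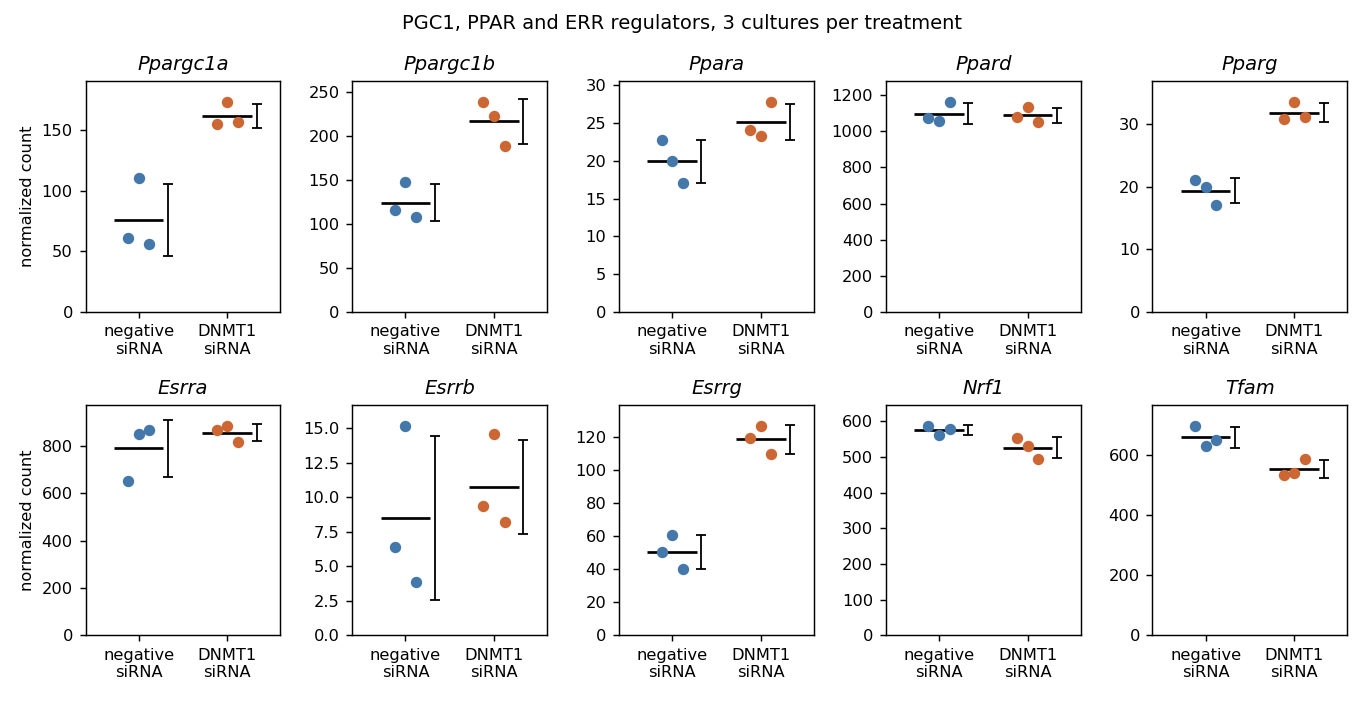
Normalized counts (y axis, each from 0) of the 10 regulators in the negative siRNA (blue) and DNMT1 siRNA (orange) cultures, with points for cultures, a line for the mean and a bar for the SD. Ppargc1a, Ppargc1b and Esrrg are at 75.9, 124.1 and 50.4 on average with negative siRNA and at 162.0, 216.6 and 118.6 with DNMT1 siRNA, while Ppard, Esrra and Esrrb overlap between the treatments.

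Both PGC1 coactivators rose. Ppargc1a (ENSMUSG00000029167, chromosome 5, 51454250 to 51567726), the inducible coactivator of mitochondrial biogenesis, had 61.27, 110.3 and 55.99 normalized counts in the negative siRNA cultures and 155.5, 173.5 and 157.0 in the DNMT1 siRNA cultures. The groups did not overlap, and negative siRNA replicate 2 was the highest control. The mean rose from 75.85 ± 29.95 to 162.0 ± 9.945 (SD over 3 cultures), or by 1.09 on the log2 scale (SE 0.26, 95% interval 0.50 to 1.69, adjusted p = 0.0315).

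Ppargc1b (ENSMUSG00000033871, chromosome 18, 61298136 to 61400431) encodes a related coactivator of PPARs and ERRs. The negative siRNA cultures had 116.1, 148.2 and 108.1 normalized counts and the DNMT1 siRNA cultures 238.7, 223.0 and 188.1. Here too, every DNMT1 siRNA culture was above every control, and replicate 2 was the highest control. The mean rose from 124.1 ± 21.23 to 216.6 ± 25.91 (SD over 3 cultures), or by 0.80 on the log2 scale (SE 0.17, 95% interval 0.42 to 1.18, adjusted p = 0.0199). The log2 ratio of Ppargc1a to Ppargc1b differed by 0.35 between treatments, with overlapping values (exact two-sided permutation test, p = 0.2, adjusted p = 0.2 over the 3 pairs of genes compared). With 3 cultures against 3 such a test cannot go below 0.1.

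None of the 3 PPAR genes was called. Ppard (ENSMUSG00000002250, chromosome 17, 28232700 to 28301474), the widely expressed PPAR, had 1074, 1060 and 1163 normalized counts in the controls and 1082, 1135 and 1052 after DNMT1 siRNA. These overlapped, and the log2 fold change was -0.01 (95% interval -0.18 to 0.16, adjusted p = 0.934). Of the members, it had the narrowest interval around 0.

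Ppara (ENSMUSG00000022383, chromosome 15, 85734983 to 85802819), the PPAR best known for fatty acid oxidation in heart and liver, was scarce, with raw counts of 22 to 39 and 16 to 18. Its normalized counts were 22.76, 19.99 and 17.11 with negative siRNA and 24.14, 23.32 and 27.8 with DNMT1 siRNA, next to each other but without overlap. The log2 fold change was 0.32 (95% interval -0.29 to 0.93, adjusted p = 0.466), and the interval included both no change and a 1.5-fold increase, which could not be told apart at this depth. The log2 ratio of Ppara to Ppard differed by 0.36, with overlapping values (exact permutation test, p = 0.2, adjusted p = 0.2).

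Pparg (ENSMUSG00000000440, chromosome 6, 115360951 to 115490399), known from adipocytes, had 21.01, 19.99 and 17.11 normalized counts in the controls and 30.84, 33.53 and 31.07 after DNMT1 siRNA. The groups were well apart for so few reads, but the gene did not pass the adjusted threshold (log2 fold change 0.71, SE 0.25, 95% interval 0.14 to 1.28, adjusted p = 0.1). Adipocyte markers were at or near 0 in the same cultures, as given above.

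Among the ERR genes, Esrrg rose. Esrrg (ENSMUSG00000026610, chromosome 1, 187608791 to 188214885), the ERR enriched in oxidative muscle and heart, had 50.19, 60.66 and 40.44 normalized counts in the controls and 119.3, 126.8 and 109.6 after DNMT1 siRNA. The lowest DNMT1 siRNA culture was far above the highest control. The mean rose from 50.43 ± 10.12 to 118.6 ± 8.643 (SD over 3 cultures), or by 1.23 on the log2 scale (SE 0.20, 95% interval 0.78 to 1.68, adjusted p = 0.00752), the largest of the members tested.

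Esrra (ENSMUSG00000024955, chromosome 19, 6910977 to 6921813), the most abundant ERR here and a main partner of PGC1 proteins, had 652.4, 849.3 and 869.4 normalized counts in the controls and 868.9, 886.2 and 816.1 after DNMT1 siRNA. Negative siRNA replicate 1 was low and the other cultures overlapped (log2 fold change 0.12, 95% interval -0.15 to 0.38, adjusted p = 0.536). Esrra shares 73 exon bases with Trmt112 on the opposite strand and 91 with the microRNA gene Mir6990. The strand setting of the counting is not given in the sources used here. Trmt112 itself had at most 41 reads, which does not show how reads from the shared bases entered the count of Esrra. The log2 ratio of Esrrg to Esrra was -3.97 ± 0.39 in the controls and -2.85 ± 0.05 after DNMT1 siRNA (SD, n = 3 each), without overlap (difference 1.12, exact permutation test, p = 0.1, adjusted p = 0.2 over the 3 pairs). Esrrb (ENSMUSG00000021255, chromosome 12, 86361117 to 86521628), known from pluripotent cells, had 11, 22 and 5 reads with negative siRNA and 7, 10 and 5 with DNMT1 siRNA, too few to test. Of 5 pluripotency genes, Pou5f1, Zfp42 and Dppa3 had 0 to 2 reads per culture, Nanog had 7 to 16 and Tfcp2l1 had 302 to 940, and the last 2, which were tested, were not called (adjusted p = 0.518 and 0.855).

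Nrf1 and Tfam were both lower in every DNMT1 siRNA culture, and neither was called. Nrf1 (ENSMUSG00000058440, chromosome 6, 30047988 to 30153458), nuclear respiratory factor 1, had 588.2, 561.8 and 577.8 normalized counts in the controls and 553.8, 530.6 and 495.6 after DNMT1 siRNA. The gap between the groups was small (log2 fold change -0.13, 95% interval -0.31 to 0.06, adjusted p = 0.329). Tfam (ENSMUSG00000003923, chromosome 10, 71225464 to 71238280) had 696.8, 629.4 and 649.3 with negative siRNA and 532.4, 540.8 and 585.5 with DNMT1 siRNA. Its log2 fold change was -0.25 (95% interval -0.44 to -0.06, adjusted p = 0.0817), and the interval did not reach a 1.5-fold decrease.

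The levels of the members were compared as RPKM, reads per kb of exon scaled to the size of the library. With negative siRNA the order was Esrra (8.30), Tfam (6.83), Ppard (6.74), Nrf1 (2.58), Ppargc1b (1.43), Ppargc1a (0.53), Esrrg (0.37), Pparg (0.30), Ppara (0.24) and Esrrb (0.065). Esrra and Tfam, Tfam and Ppard, and each neighbouring pair from Ppargc1a to Ppara overlapped between cultures. With DNMT1 siRNA the order was Esrra (8.998), Ppard (6.68), Tfam (5.74), Ppargc1b (2.50), Nrf1 (2.36), Ppargc1a (1.13), Esrrg (0.88), Pparg (0.50), Ppara (0.30) and Esrrb (0.082), and of neighbours Ppargc1b and Nrf1 alone overlapped. The called members were thus below Esrra, Ppard and Tfam on this scale under both treatments.

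On the same scale, per kb of exon, the make-up of each family was described as shares. Esrrg took 4.35% ± 1.03 of ERR reads in the controls and 8.83% ± 0.24 after DNMT1 siRNA (SD, n = 3 each), and Esrra took 94.9% and 90.4%. The Esrrg shares of the individual cultures were 5.12%, 4.75% and 3.17% against 8.78%, 9.09% and 8.61% (exact permutation test, p = 0.1). Ppargc1a took 26.4% ± 4.06 of PGC1 reads with negative siRNA and 31.3% ± 2.71 with DNMT1 siRNA, with overlap (exact permutation test, p = 0.2, n = 3 each). Within the PPARs, Ppard took 92.5% and 89.3%, Pparg 4.17% and 6.63%, and Ppara 3.30% and 4.04%. The shares of Ppard and Pparg did not overlap between treatments, and those of Ppara did.

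**Figure D2:**
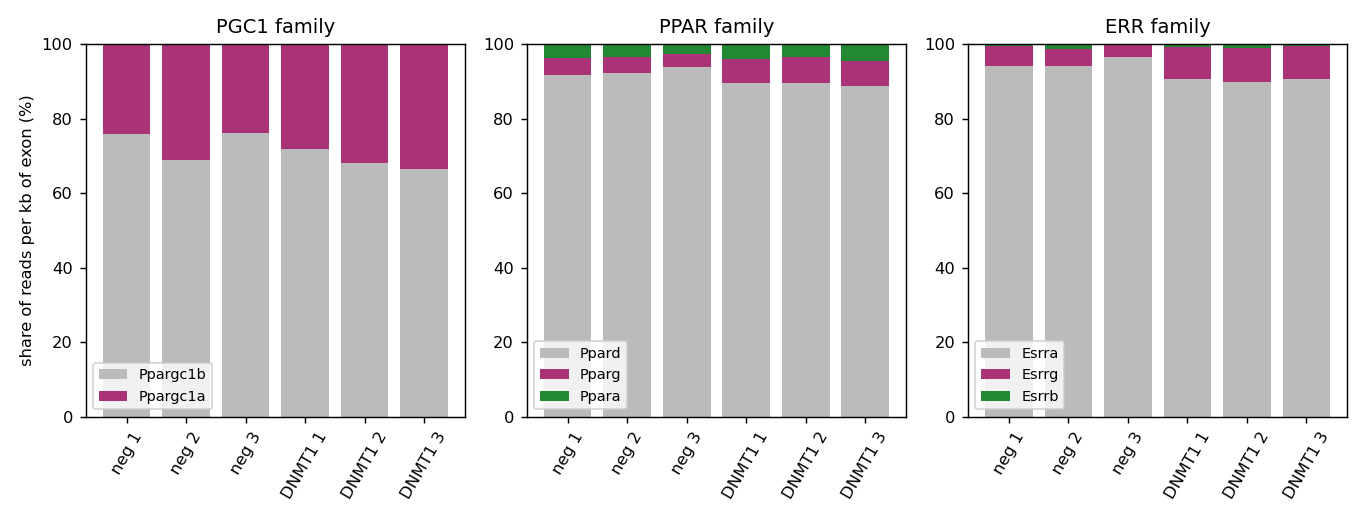
Share of reads per kb of exon (y axis, percent) taken by each gene of the PGC1, PPAR and ERR families in the 3 negative siRNA (neg) and 3 DNMT1 siRNA cultures. Ppargc1b, Ppard and Esrra take the largest shares in every culture, and the mean Esrrg share is 4.35% in the controls and 8.83% after DNMT1 siRNA.

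The 3 calls differed in how well they held with fewer cultures. With 1 culture left out at a time, Esrrg was called in 5 of 6 fits, and was lost without DNMT1 siRNA replicate 2 (adjusted p = 0.0543). Ppargc1b was called in 3 of 6 fits, and was lost without each of the 3 DNMT1 siRNA cultures (adjusted p up to 0.102). Ppargc1a was called in 1 of 6 fits, that without negative siRNA replicate 2, the culture with the highest control count, where the log2 fold change was 1.46 (adjusted p = 0.000499). In the other 5 fits its adjusted p was between 0.0605 and 0.135. Over all genes, 659 were called up with all cultures. Without DNMT1 siRNA replicates 1, 2 and 3 in turn, 316, 255 and 314 were. Without negative siRNA replicates 1, 2 and 3, the numbers were 630, 823 and 647. Losing a call without a DNMT1 siRNA culture was thus common to many genes. Log2 fold changes in the 6 fits were 0.92 to 1.46 for Ppargc1a, 0.70 to 0.95 for Ppargc1b and 1.10 to 1.38 for Esrrg. No member was called when the test was against a fold change of 1.5 (edgeR's glmTreat, adjusted p = 0.0873 for Esrrg, 0.358 for Ppargc1a and 0.636 for Ppargc1b).

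**Figure D3:**
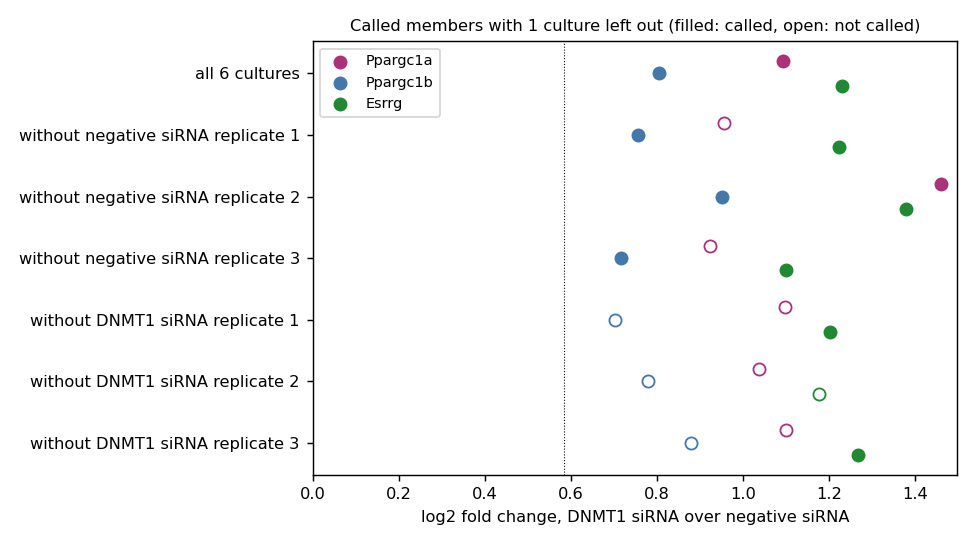
Log2 fold change (x axis) of the 3 called members with all 6 cultures and with each culture left out (y axis), where filled points were called and open points were not. All points lie to the right of the dotted line at a fold change of 1.5, and Ppargc1a is filled with all cultures and without negative siRNA replicate 2.

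The called members were then set beside the cardiomyocyte markers, as a description and on a scale chosen after the data were seen. The mean log2 normalized count of all 6 markers of the list was 11.72 ± 0.18 in the controls and 12.64 ± 0.14 after DNMT1 siRNA (SD, n = 3 each), a difference of 0.92. Relative to it, the log2 level of Ppargc1a differed by 0.24 between treatments and that of Ppargc1b by -0.11, both with overlapping cultures, and that of Esrrg by 0.33 without overlap. With Vcam1 left out, so that the reference held the 5 markers that rose, its difference was 1.15 and the values were 0.01 for Ppargc1a, -0.34 for Ppargc1b and 0.10 for Esrrg. Since a reference that rose lowers every value set against it, these differences show which genes rose more or less than the markers and nothing of the cause. The counts do not give the share of cardiomyocytes in a culture, and a change in it cannot be told apart here from a change within the cells.

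**Figure D4:**
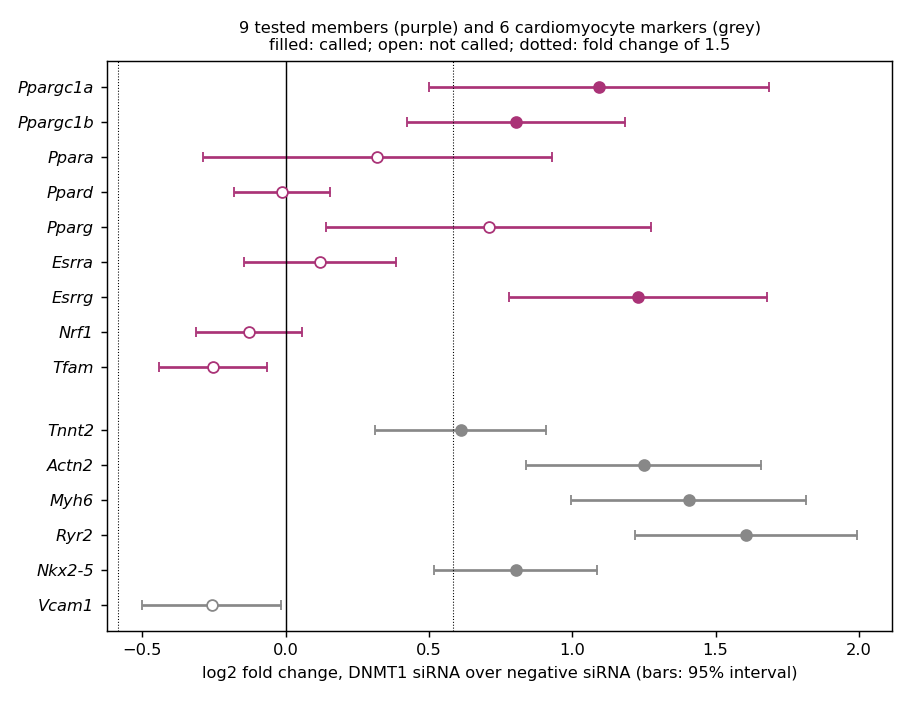
Log2 fold change (x axis, DNMT1 siRNA over negative siRNA) of the 9 tested members (purple) and 6 cardiomyocyte markers (grey), with 95% intervals; filled points were called and dotted lines mark a fold change of 1.5. Ppargc1a (1.09), Ppargc1b (0.80) and Esrrg (1.23) lie in the range of the 5 markers that rose (0.61 to 1.61).

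By a measure of likeness, the genes whose profile over the 6 cultures was nearest to each called member were named. Profiles were log2 CPM less the mean of the gene, over 12738 genes whose mean log2 CPM exceeded 1, and nearness was the root mean square difference. For Ppargc1a the nearest were Fam163b (0.116), Myh14 (0.119), a non-muscle myosin, and Fam78a (0.125). For Ppargc1b they were Grb14 (0.0693), an adaptor protein of receptor tyrosine kinases, Nkx2-5 (0.0705), and Ddc (0.0861), an enzyme of monoamine synthesis. For Esrrg they were Fhod3 (0.0945), a sarcomeric formin, Map7 (0.0975), a microtubule protein, and Trim63 (0.0981), a muscle ubiquitin ligase. With 6 cultures in 2 groups, such profiles mainly share the size of the difference between treatments.

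The partners of these regulators were mostly not called. Of 28 genes for RXRs, coactivators, corepressors, AMP kinase subunits and related factors, 27 were tested, 3 rose and none fell, and the median log2 fold change was 0.07. Perm1, a muscle regulator induced by PGC1 and ERR, had 49.02, 51.7 and 55.99 normalized counts in the controls and 105.9, 103.5 and 121.0 after DNMT1 siRNA. It rose by 1.08 on the log2 scale (SE 0.17, adjusted p = 0.00675), and its groups were far apart. Prkaa2, the catalytic AMP kinase subunit typical of muscle, rose from 700.4 ± 16.8 to 1302 ± 107.0 (log2 fold change 0.90, adjusted p = 0.000931). Prkab2, a regulatory subunit of the same kinase, rose from 1760 ± 151.5 to 2862 ± 18.97 (log2 fold change 0.70, adjusted p = 0.00176). These 3 were called in each of the 6 fits with a culture left out. Their paralogs Prkaa1 (log2 fold change 0.07, adjusted p = 0.567) and Prkab1 (0.15, adjusted p = 0.31) were not called. Lpin1, a PGC1 cofactor and lipid phosphatase, and Med1, a Mediator subunit that binds PPARs, had adjusted p values of 0.00851 and 0.0249 with log2 fold changes of 0.53 and 0.38, under the fold change limit. No partner was called down by edgeR's quasi-likelihood test, its exact test or DESeq2. At an unadjusted p below 0.05, 9 were higher and 2 were lower, and the groups did not overlap for 10 higher and 4 lower genes of the 27 tested. Of all genes tested, 4.26% were called up and 2.23% down. At that p, 14.9% of them were higher and 14.3% lower, and 18.3% and 17.7% did not overlap. Rxra and Rxrb, the RXRs with many reads, had log2 fold changes of 0.02 and -0.25 without a call, and Rxrg had at most 5 reads. Pprc1, the third PGC1 family gene, was not called (-0.11, adjusted p = 0.472).

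The promoter of Perm1 held 1 ERR half-site, which 4.72% of all windows did. The sequence shown is that before its first exon (GRCm38.p6, chr4:156215677-156215867, plus strand, 5′ to 3′), with the half-site, which reads on the reverse strand and begins 202 bases before the RefSeq start, in capitals.
Perm1: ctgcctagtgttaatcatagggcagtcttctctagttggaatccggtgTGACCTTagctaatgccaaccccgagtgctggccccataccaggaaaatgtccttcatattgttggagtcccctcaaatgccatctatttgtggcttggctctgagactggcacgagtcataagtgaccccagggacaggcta
Its window held 4 CpGs, near the 5 of Ppargc1a, while those of Prkaa2 and Prkab2 held 35 and 23.

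Target genes of PPARs for fatty acid uptake and oxidation were mostly not called. Of 26 such genes, 24 were tested, 3 rose and 1 fell, with a median log2 fold change of 0.18. At an unadjusted p below 0.05, 6 were higher and 3 were lower, and the groups did not overlap for 7 higher and 3 lower genes. Of all genes tested, 4.26% were called up and 2.23% down. At that p, 14.9% of them were higher and 14.3% lower, and 18.3% and 17.7% did not overlap. Lpl, the lipase that releases fatty acids from lipoproteins, rose from 3619 ± 263.4 to 5563 ± 210.1 normalized counts (log2 fold change 0.62, adjusted p = 0.00253). Acadl, a long-chain acyl-CoA dehydrogenase, rose from 1367 ± 227.4 to 2089 ± 106.4 (0.61, adjusted p = 0.0159), and Pdk4, a kinase that restrains pyruvate oxidation, from 102.4 ± 19.06 to 162.3 ± 7.167 (0.66, adjusted p = 0.0392). Acot2, a mitochondrial acyl-CoA thioesterase, fell from 364.3 ± 35.78 to 199.2 ± 26.85 (-0.87, adjusted p = 0.00681). Its near-identical paralog Acot1 was at -1.11 on the same scale (adjusted p = 0.074, groups without overlap), and reads of the pair may be split uncertainly between them. Acot2 was called in all 6 fits with a culture left out and Lpl in 4, while Acadl was called in 2 (lost without negative siRNA replicate 3 and without each DNMT1 siRNA culture) and Pdk4 in 1 (that without negative siRNA replicate 2). Lpl was lost without negative siRNA replicate 2 and without DNMT1 siRNA replicate 3, where its fold change passed under the limit. The muscle isoform Cpt1b had 2 to 15 reads and was not called. The fatty acid carriers Cd36 (0.46, adjusted p = 0.344) and Fabp3 (0.67, adjusted p = 0.149) overlapped between treatments.

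Genes of the TCA cycle and respiratory chain, to which ERRs are known to bind, were mostly slightly higher. All 23 were tested, 21 had a log2 fold change above 0, and the median was 0.19, but 3 were called and none fell. At an unadjusted p below 0.05, 12 were higher and 1 was lower, and the groups did not overlap for 13 higher genes and 1 lower gene. Over all genes tested, 4.26% were called up and 2.23% down, and 49.3% had a log2 fold change above 0. At that p, 14.9% of them were higher and 14.3% lower, and 18.3% and 17.7% did not overlap. The 3 that rose are muscle isoforms. Ckmt2, the sarcomeric mitochondrial creatine kinase, had 2, 12 and 4 reads with negative siRNA and 31, 46 and 34 with DNMT1 siRNA (log2 fold change 3.70, SE 0.53, adjusted p = 0.00471), and was called in all 6 fits with a culture left out. Cox8b and Cox7a1, the heart and muscle isoforms of cytochrome c oxidase subunits, had log2 fold changes of 1.66 (SE 0.45, adjusted p = 0.049) and 1.51 (SE 0.41, adjusted p = 0.0481). Both were called in 1 of the 6 fits, that without negative siRNA replicate 2, and the highest adjusted p without a culture was 0.159 and 0.178. In Cox7a1, DNMT1 siRNA replicate 1 stood apart at 164.9 normalized counts, where the other DNMT1 siRNA cultures had 74.34 and 71.96, and the lowest log2 fold change with a culture left out was 0.98. The third muscle isoform, Cox6a2, had overlapping groups (0.72, adjusted p = 0.191). Ogdh (0.51), Sdha (0.36) and Slc25a4 (0.31), an enzyme and a subunit of the TCA cycle and the adenine nucleotide carrier, passed the adjusted threshold under the fold change limit. Widely expressed genes of the list, such as the citrate synthase Cs (0.19, adjusted p = 0.0759) and the ATP synthase subunit Atp5b (0.09, adjusted p = 0.493), were not called.

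The factors for transcription and replication of mitochondrial DNA, which work with TFAM, were not called in either direction. Of 19 genes, 18 were tested, with log2 fold changes from -0.47 (Top1mt, the mitochondrial topoisomerase) to 0.34 (Tfb1m, an rRNA methyltransferase) and a median of -0.11. At an unadjusted p below 0.05, 0 were higher and 3 were lower, where 14.9% and 14.3% of all genes tested were. Of all genes tested, 4.26% were called up and 2.23% down. DESeq2 and edgeR's exact test called none of this list. The mitochondrial RNA polymerase Polrmt was at 0.11 (adjusted p = 0.422) and the helicase Twnk at -0.31 (adjusted p = 0.186). The output of this machinery could not be read, since the 13 mRNAs encoded by mitochondrial DNA are listed at 0 in all 6 cultures, although every cell uses these genes, so that their level is not known from the counts.

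**Figure D5:**
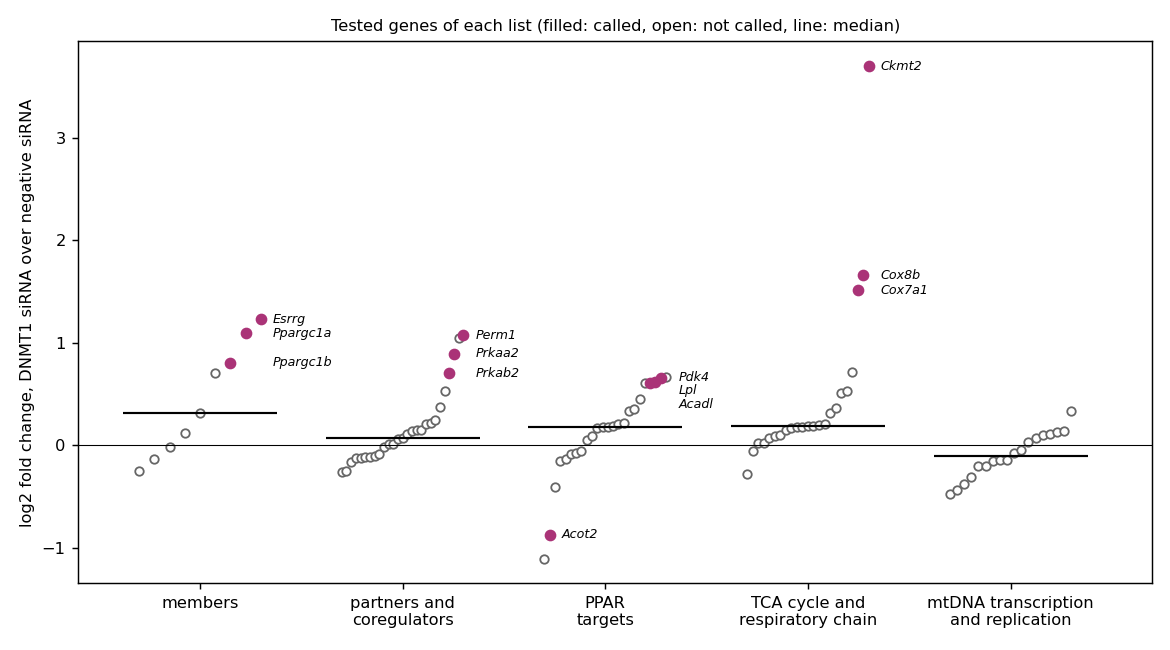
Log2 fold change (y axis, DNMT1 siRNA over negative siRNA) of every tested gene of the members and of the 4 lists beside them, ordered within each list, with the median as a line, called genes filled and named, and the rest open. The medians are 0.32, 0.07, 0.18, 0.19 and -0.11, and no gene of mitochondrial DNA transcription and replication is filled.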

How the data were processed

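RNA-Seq of 3 negative siRNA and 3 DNMT1 siRNA cultures was analysed. Each deposited file holds the raw counts of 1 sample per Ensembl gene. The authors made them with HTSeq from TopHat2 alignments to mm10 (GRCm38), after FastQC, and did not normalize them. Versions and the strand setting are not given in the sources used here. Groups came from the sample titles. The smaller DNMT1 siRNA libraries give less precision for genes with few counts.

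Tests on counts used edgeR 4.0.16 and limma 3.58.1 under R 4.3.3: TMM normalization, filterByExpr (minimum count 10, minimum total count 15), the quasi-likelihood F test without a block, and Benjamini-Hochberg adjustment over 15470 genes. DESeq2 1.42.0 was an alternative. Ratios and shares were computed in Python 3.11.15 with pandas 2.3.3 and numpy 2.4.6 and tested by exact two-sided permutation, ratios with 0.5 added to each count. The scripts were tested on simulated data. Log2 CPM used a prior count of 2. Intervals of 95% used the t distribution of the fit. Positions came from GENCODE M21 (GRCm38), which holds 42462 of the 43629 genes and all 165 genes of the lists, and promoters from RefSeq. The chi-square statistic per degree of freedom was 26.44 to 54.46 between negative siRNA cultures. Between DNMT1 siRNA cultures it was 2.7 to 9.858, with the lowest value for replicates 2 and 3, so no file was a copy.

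The members and lists were chosen with earlier results of these data known. All members are named, with the called genes of each list (at most 4 in each direction), the 3 genes most like each called member, Dnmt1 and Dnmt3a, and any gene needed to read a sentence. Uncalled partners, paralogs and list genes named beside them were chosen after their values were seen. Alternatives were the tool, glmTreat, the normalization, the count filter, the fold change limit, leaving out mitochondrially encoded genes, a replicate block and leaving out each culture. The levels relative to 5 and 6 cardiomyocyte markers were added after the data were seen.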

Additional observations from a re-analysis of the deposited data

Results flagged for a closer look

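Reads that mapped uniquely but fell outside annotated exons enter no comparison of genes, and they were more frequent with DNMT1 siRNA. Their share of uniquely mapped reads was 16.42% ± 1.58 in the controls and 29.28% ± 4.23 after DNMT1 siRNA (SD, n = 3 each), and every DNMT1 siRNA culture lay above every control (exact two-sided permutation test, p = 0.1, the smallest that 3 cultures against 3 allow). The part of this difference in the values of Ppargc1a, Ppargc1b and Esrrg was not tested.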

How the results depend on the processing

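Over all genes, 659 rose and 345 fell. The combined list of DESeq2 and the exact test had 539 down. The test against a fold change of 1.5 called 140 up and 36 down, no count filter 994 and 701, and FDR alone 1054 and 874. Leaving out 1 DNMT1 siRNA culture gave 255 to 316 up and 112 to 146 down. Leaving out 1 negative siRNA culture gave 630 to 823 up and 345 to 472 down. With the replicate block, 513 rose and 285 fell, and 3 members rose as without it. After the group means were removed, cultures of equal number correlated at 0.00637, -0.0208 and 0.0274, so no pairing by number was seen. With 3 cultures per treatment, these values cannot exclude that cultures of equal number shared a preparation.

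Of the members, 3 were called up with every other tool, normalization and filter tried, 0 by the test against a fold change of 1.5, and 0 to 3 with 1 culture left out. None was called down in any of the 16 alternatives. Relative to all 6 cardiomyocyte markers Ppargc1b turned to -0.11, and relative to the 5 that rose to -0.34, because the reference itself rose by more than the gene. With 1 culture left out, log2 fold changes ran from -0.0452 to 0.0312 for Ppard and from -0.0027 to 0.19 for Esrra. Those of Ppara, Pparg, Nrf1 and Tfam kept their direction, uncalled, in all 16 alternatives. The ratios and shares kept their direction under another pseudocount, without division by length, and with 1 culture left out.

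For the partners, the test against a fold change of 1.5 called 1 up and FDR alone 5. For PPAR targets that test called 0 up and 0 down, leaving out 1 culture 0 to 2 up and 1 to 2 down, and DESeq2, the exact test, both together and no count filter each called 2 down, the second being Acot1. For genes of the TCA cycle and respiratory chain, that test called 1 up, FDR alone 6, and leaving out 1 culture 1 to 3. Causes of these shifts were not tested, beyond the fewer samples or other thresholds that define them. Raw counts were 16 to 39 for Ppara and 19 to 36 for Pparg, and their intervals were wide.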
